A study of Mus musculus with 2 samples.

Results

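The 9 genes described here encode transcription factors of columnar endoderm. They are the GATA factors Gata4 and Gata6, the forkhead factors Foxa1, Foxa2, Foxa3 and Foxq1, the nuclear receptor Hnf4a, the ETS factor Elf3 and the homeodomain factor Pdx1. They were taken by name, with earlier results of these data known, and are 9 of the 19550 genes counted. Their counts beside the share of all genes are therefore descriptions. Single cells of the esophagus, of the gastro-esophageal squamo-columnar junction (GE-SCJ), where squamous meets columnar epithelium, and of the stomach were sequenced from wild-type C57BL/6 mice at embryonic day 15 (E15), E19, day 2 after birth (pup) and 8 weeks (adult). The labels give 6 mice at E15, 2 at E19, 2 pups and 3 adults, and mice were pooled within the tag of a region and stage. Each region and stage is therefore 1 sample without a replicate, and no test was run. Adult stomach is not analysed here.

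GATA4 and GATA6 are zinc finger proteins that are needed for the formation of gut endoderm, and GATA4 is known for keeping the glandular stomach distinct from the squamous forestomach. FOXA proteins open chromatin ahead of other factors, and HNF4A, often bound at the same enhancers, drives genes of digestive columnar epithelium and liver. PDX1 is known for the distal stomach, the duodenum and the pancreas, while SOX2 and TRP63 are the factors best known for squamous esophagus.

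The epithelium comprised 1540 cells labelled columnar and 730 labelled squamous among 7808 cells. The level of a gene is its total of UMIs (unique molecular identifiers, 1 for each captured transcript) in a group per 1000000 UMIs of that group (CPM), with an exact 95% Poisson interval. Intervals cover counting error only, not the spread between mice. Columnar cells were deeper, with a median of 25118 UMIs against 11996.5 in squamous cells, so shares of positive cells (at least 1 UMI) are given with each cell thinned to 5000 UMIs. The 354 immune cells of the same pool, with a median of 8266.5 UMIs, give a background level from cells that should lack these factors. Whether it comes from free RNA or from droplets with more than 1 cell was not tested. Only 5 immune cells came from adult esophagus and 1 from adult GE-SCJ, so this background rests mostly on earlier stages. The class labels came from clustering on all genes, so differences between classes are descriptions. Of the 2270 epithelial cells, 98.6% kept their label when they were assigned by marker genes, and 28 of the 730 squamous cells were put with the columnar cells. The summed squamous markers (7 genes, among them Krt5, Trp63 and Krt13) reached 81.0 to 1534 CPM in columnar groups and 6108 to 50139 CPM in squamous groups. The summed columnar markers (7 genes, among them Krt8, Krt19, Cldn18 and Agr2) reached 4597 to 8340 CPM in columnar groups. They reached 356 to 5335 CPM in squamous groups and 303 to 981 CPM in immune cells. Within the GE-SCJ, Krt19 was higher in squamous cells at E15 (1268 against 618 CPM), E19 (2669 against 1073) and pup (1114 against 477). In adults it was lower there, at 137 against 712 CPM. The other genes of this list were lower in squamous cells at every GE-SCJ stage. Fibroblast markers were found at 222 to 5796 CPM in columnar groups, and their part in the values below was not tested.

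The first question was which of the 9 factors separated columnar from squamous cells, at the junction and between the organs on its sides. Gata4, Gata6, Foxa3 and Hnf4a were higher in columnar cells by 3.78-fold or more in every comparison of both kinds, while Foxa1, Foxa2, Foxq1 and Elf3 had levels in squamous cells that depended on stage. A factor was called higher when the ratio was at least 2-fold and its exact interval lay above 1-fold, and genes under 50 UMIs in the 2 groups together were not tested. At the GE-SCJ, 4 of 7 factors tested were called higher in columnar cells at E15 (7.31% of all genes tested), 5 of 8 at E19 (10.5%) and 6 of 8 in pups (14.6%), and none was called lower. In adults, where only 19 columnar cells were present, 4 of 4 were called higher (17.9%), namely Gata6, Foxa1, Foxq1 and Elf3. The others, among them Gata4, Foxa3 and Hnf4a, had too few UMIs there to be tested. Of those 19 cells 3 carried UMIs of 4 genes of embryonic cells, and without them Gata6 was at 149 CPM and Foxa1 at 133 CPM. Between stomach columnar and esophageal squamous cells, 7 of 9 were called higher at E15 (9.08%), 9 of 9 at E19 (12.9%) and 6 of 9 in pups (23.5%). The exception in direction was Elf3 in pups, which was lower in columnar cells (11.6% of all genes were called lower).

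**Figure D1:**
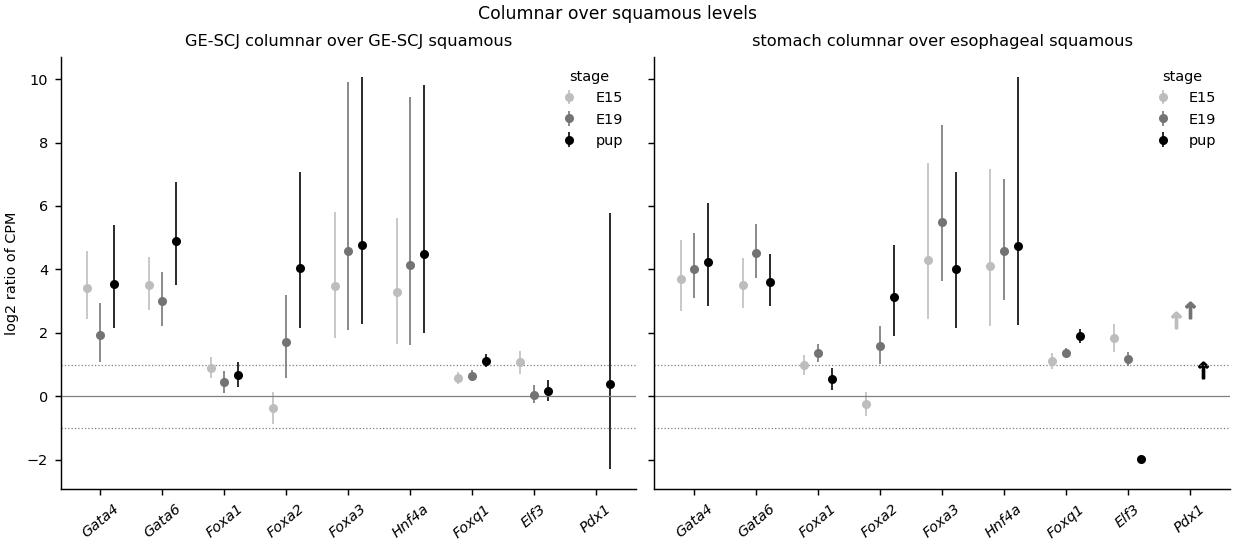
Log2 ratio of CPM in columnar over squamous cells for each factor at E15, E19 and pup, within the GE-SCJ (left) and between stomach and esophagus (right). Bars are exact 95% counting intervals, arrows mark ratios against 3 counts where squamous cells had no UMI, and dotted lines mark 2-fold. Gata4, Gata6, Foxa3 and Hnf4a lie above 2-fold at all stages, Foxa2 moves from below 0 at E15 to above 3 in pups, and Elf3 lies at -1.98 between the organs in pups.

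Gata4 and Gata6 had the columnar pattern at all stages. Gata4 (chr14:63198922-63271692 of GRCm38, minus strand) was found in stomach columnar cells at 105, 85.7 and 76.8 CPM from E15 to pup, with an interval of 95.4 to 116 for the first. GE-SCJ columnar cells had 106, 77.2 and 69.0 CPM over the same stages and 86.7 CPM in the 19 adult cells. Esophageal squamous cells had 8.14, 5.27, 4.11 and 7.17 CPM from E15 to adult, and GE-SCJ squamous cells 9.95, 20.4, 5.97 and 3.22 CPM. The columnar and squamous ranges did not overlap, and no squamous interval lay above that of immune cells, which had 8.50 CPM (5.82 to 12.0). Within the GE-SCJ the columnar level was 10.6-fold higher at E15, 3.78-fold at E19 and 11.5-fold in pups. The smaller ratio at E19 went with 11 UMIs in 34 squamous cells, whose interval of 10.2 to 36.5 CPM overlapped that of E15 squamous cells.

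Gata6 was the steadiest of the 9 factors among columnar groups. It was at 174, 174 and 175 CPM in stomach columnar cells at E15, E19 and pup, and at 175, 194, 176 and 173 CPM in GE-SCJ columnar cells from E15 to adult. The highest of 7 columnar groups of at least 20 cells was 1.18-fold above the lowest, which was the 20 columnar cells of E19 esophagus at 165 CPM (134 to 201). Squamous groups held between 5.15 and 24.1 CPM, and immune cells 9.56 CPM (6.70 to 13.2). At equal depth, Gata6 was positive in 45.0% to 60.2% of columnar cells and 0% to 6.90% of squamous cells, with 3.16% in immune cells. The columnar level of Gata6 exceeded the squamous one by between 8.05-fold (GE-SCJ, E19) and 29.5-fold (GE-SCJ, pup) at the stages with at least 20 cells of both classes.

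Gata6 was also the 1 factor of the 9 with a higher level outside the epithelium. The 139 cells of a second stromal label had 336 CPM (306 to 368), above the 177 CPM of all columnar cells, and 70.0% of them were positive at equal depth. Fibroblasts had 26.9 CPM and smooth muscle cells 18.9 CPM, with 90.8 CPM in the 151 fibroblasts of pup esophagus. Gata4 in the second stromal label was at 19.4 CPM (12.6 to 28.4). A noncoding gene on the opposite strand, 1010001N08Rik, overlaps Gata6 on chromosome 18. The counts hold 1010001N08Rik as a gene of its own. Whether the counting used strand is not given in the sources used here, and the overlap was not examined further.

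The balance of the 2 GATA genes differed between stages. Gata4 made up 37.7% (34.8 to 40.7) of the UMIs of both genes in stomach columnar cells at E15, 33.0% (31.2 to 34.9) at E19 and 30.5% (28.9 to 32.3) in pups. In GE-SCJ columnar cells the shares were 37.6%, 28.4% and 28.1%. E15 had the largest share in both regions. Neighbouring stages overlapped in the stomach, while the E15 interval at the GE-SCJ (32.7 to 42.8) lay above that of E19 (26.4 to 30.5). Neither gene was called different between stages in stomach columnar cells.

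**Figure D2:**
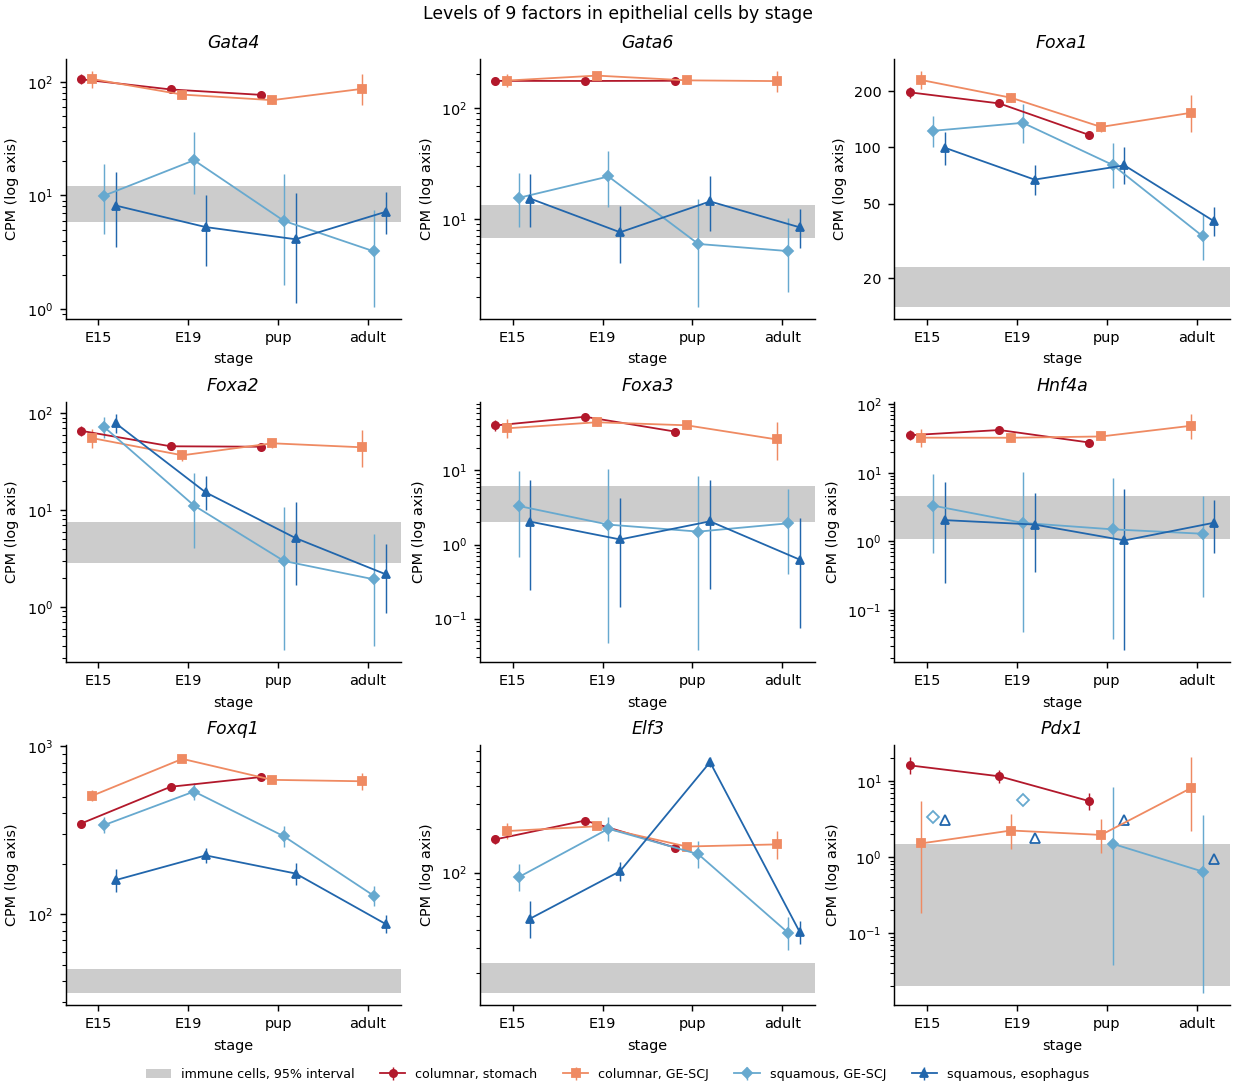
CPM of each factor (log axis) by stage in stomach and GE-SCJ columnar cells and in GE-SCJ and esophageal squamous cells, with exact 95% intervals, and the immune interval as a grey band. Open markers stand at the level of 3 counts where no UMI was found. Gata4, Gata6, Foxa3 and Hnf4a keep the classes apart at all stages, with squamous points near the immune band. Foxa2 in squamous cells starts at the columnar level and ends near the band, and Elf3 peaks at 589 CPM in pup esophagus.

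The FOXA genes are paralogs with different squamous levels. Foxa1 (chr12:57540628-57546916, minus strand) was at 197, 172 and 117 CPM in stomach columnar cells at E15, E19 and pup, and at 230, 185, 129 and 153 CPM in GE-SCJ columnar cells from E15 to adult. Esophageal squamous cells had 99.7, 67.3, 80.2 and 40.2 CPM, and GE-SCJ squamous cells 123, 135, 80.6 and 33.5 CPM. Squamous cells thus held Foxa1 at all stages, above the immune level of 18.1 CPM (14.0 to 22.9) in 8 of 8 groups. The ratio at the GE-SCJ was 1.87-fold at E15, 1.36-fold at E19 and 1.60-fold in pups, none of them called, and 4.58-fold in adults, which was called. Between the organs Foxa1 was called at E19 alone, with a log2 ratio of 1.35 (1.08 to 1.64) against 0.98 (0.68 to 1.30) at E15.

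Foxa2 (chr2:148042877-148046969, minus strand) changed its relation to the classes between stages. At E15 it was at 78.4 CPM (61.9 to 98.0) in esophageal squamous cells, 71.9 CPM (55.5 to 91.6) in GE-SCJ squamous cells, 65.8 CPM (57.9 to 74.4) in stomach columnar cells and 55.1 CPM (43.2 to 69.3) in GE-SCJ columnar cells. All 4 intervals overlapped, so at E15 Foxa2 did not separate the classes at this depth. Esophageal squamous cells then had 15.2 CPM at E19, 5.14 CPM in pups and 2.18 CPM in adults, and GE-SCJ squamous cells 11.1, 2.99 and 1.93 CPM. Immune cells had 4.78 CPM (2.83 to 7.56). The squamous interval overlapped that of immune cells from E19 on at the GE-SCJ (4.09 to 24.2 at E19), and from pup on in the esophagus. Stomach columnar cells kept 45.5 CPM at E19 and 45.0 CPM in pups, and GE-SCJ columnar cells 36.7, 48.8 and 44.4 CPM from E19 to adult.

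The fall of Foxa2 in squamous cells between E15 and E19 was called in both regions, with a log2 ratio of -2.37 (-3.07 to -1.71) in the esophagus and -2.69 (-4.19 to -1.49) at the GE-SCJ. From E15 to adult it fell 35.9-fold in esophageal squamous cells, where Foxa1 fell 2.48-fold (2 of 4 factors tested were called there, against 32.2% of all genes). The share of Foxa2 in the UMIs of Foxa1 and Foxa2 moved accordingly. It was 44.0% (36.5 to 51.7) in E15 esophageal squamous cells, 18.4% at E19, 6.02% in pups and 5.15% in adults, against 25%, 20.9% and 27.9% in stomach columnar cells from E15 to pup. Cells with a UMI of Foxa2 made up 27.6% of E15 esophageal squamous cells at equal depth and 1.75% of adult ones, with 2.37% in immune cells.

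Foxa3 (chr7:19013284-19023538, minus strand) had the columnar pattern at every stage. It was at 40.4, 53.0 and 33.4 CPM in stomach columnar cells at E15, E19 and pup, and at 37.0, 44.7, 40.6 and 26.2 CPM in GE-SCJ columnar cells from E15 to adult. Squamous groups held 1 to 3 UMIs each, or 0.623 to 3.32 CPM, at or below the immune level of 3.72 CPM (2.03 to 6.24). The log2 ratio between stomach columnar and esophageal squamous cells was 4.31 (2.43 to 7.37) at E15, 5.50 (3.64 to 8.55) at E19 and 4.02 (2.16 to 7.07) in pups. The wide intervals come with 2 squamous UMIs at each of these stages.

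The stretches before 1 start of each FOXA gene are shown (RefSeq, GRCm38.p6), for Foxa2 the start whose promoter held matches. The Foxa1 start and this Foxa2 start lie inside the annotated genes, so the stretches are not at matched positions. Promoters of 250 bases before a start were found for 6 of the 9 factors, 9 promoters in all, and were searched on both strands for 5 motifs. The GATA motif was AGATAA with TGATAA as its other form, the forkhead motif TGTTTAC with TGTTTGC as its other form, and the ETS motif CCGGAAG with CAGGAAG as its other form. The HNF4 core was CAAAGT, and the TATA motif was TATAAA. Capitals mark the matches. The stretch of Foxa1 (chr12:57546122-57546361, minus strand, ending 11 bases before the start) holds a forkhead match 141 bases before the start that runs into an HNF4 core. That of the third Foxa2 start (chr2:148045465-148045714, minus strand) holds matches to the TATA motif 208, the GATA motif 183 and the HNF4 core 172 bases before it, and that of Foxa3 (chr7:19023540-19023789, minus strand) a TATA match 36 bases before the start.
Foxa1: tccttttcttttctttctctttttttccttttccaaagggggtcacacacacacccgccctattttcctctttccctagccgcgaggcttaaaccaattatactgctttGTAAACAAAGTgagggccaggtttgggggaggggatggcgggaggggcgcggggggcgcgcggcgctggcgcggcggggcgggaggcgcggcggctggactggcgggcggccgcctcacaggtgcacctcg
Foxa2: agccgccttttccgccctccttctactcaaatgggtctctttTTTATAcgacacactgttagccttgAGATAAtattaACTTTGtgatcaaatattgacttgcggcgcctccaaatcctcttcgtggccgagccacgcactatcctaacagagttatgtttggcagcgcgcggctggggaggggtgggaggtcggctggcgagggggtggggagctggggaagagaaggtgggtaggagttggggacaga
Foxa3: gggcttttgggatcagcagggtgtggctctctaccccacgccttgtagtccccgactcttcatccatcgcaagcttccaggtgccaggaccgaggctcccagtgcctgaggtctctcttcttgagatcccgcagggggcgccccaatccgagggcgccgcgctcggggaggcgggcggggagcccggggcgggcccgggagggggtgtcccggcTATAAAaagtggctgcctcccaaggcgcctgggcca

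Of 32851 mouse promoters of the same length, 16.6% held the GATA motif, 7.29% the forkhead motif, 12.6% the HNF4 core, 17.0% the ETS motif and 12.4% the TATA motif. Such matches are common and describe letters, not bound sites. The first Hnf4a start has a GATA match 52 bases and an ETS match 13 bases before it, in a window that overlaps an annotated exon and is not printed. The promoters of Elf3 and Pdx1, the second of Hnf4a and the other two of Foxa2 held none of the 5 motifs.

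Hnf4a (chr2:163506808-163572910, plus strand) followed Foxa3 in its pattern. Stomach columnar cells had 35.2, 42.0 and 27.6 CPM at E15, E19 and pup, and GE-SCJ columnar cells 32.5, 32.4, 33.8 and 48.4 CPM from E15 to adult. Squamous groups had 1 to 6 UMIs and 1.03 to 3.32 CPM, against 2.39 CPM (1.09 to 4.54) in immune cells. The pup ratio at the GE-SCJ was 22.6-fold, with a log2 interval of 2.01 to 9.81, and at E15, where the gene had too few UMIs to be counted among those tested, it was 9.79-fold. In groups of at least 20 cells, 12.6% to 25% of columnar cells were positive at equal depth, and 0% to 2.91% of squamous cells. Hnf4aos, an antisense gene, and the small RNA gene Gm25881 overlap Hnf4a, and whether the counting separated their reads was not examined here.

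Foxq1 (chr13:31556134-31560976, plus strand), a forkhead factor known from gastric surface mucous cells, was present in both classes. Its level in stomach columnar cells was 346, 574 and 656 CPM from E15 to pup, with intervals of 328 to 365, 559 to 590 and 641 to 671. GE-SCJ columnar cells had 508, 842, 631 and 619 CPM from E15 to adult, GE-SCJ squamous cells 340, 538, 291 and 129 CPM, and esophageal squamous cells 160, 224, 175 and 87.6 CPM. The class and the region both ordered the levels at E15 and E19. At E15 GE-SCJ squamous cells lay at the level of stomach columnar cells, with overlapping intervals. In pups the columnar intervals of the 2 regions overlapped, at 641 to 671 CPM in the stomach and 614 to 649 CPM at the GE-SCJ. All 8 squamous groups exceeded the 40.1 CPM (34.0 to 47.1) of immune cells. GE-SCJ squamous cells were 2.12-fold above esophageal ones at E15 and 2.40-fold at E19, both called, and 1.67-fold in pups, which was not. With the first squamous label alone (described with Elf3), the log2 ratio in pups was 0.11. The gene A530084C06Rik overlaps Foxq1 on the opposite strand.

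Foxq1 and Foxa1 were the factors called between the squamous cells of the 2 regions at E15 and E19. At E15, 1 of 4 factors tested was called (Foxq1, against 5.60% of all genes), and at E19, 2 of 3 (Foxq1 and Foxa1, against 10.2%), with Foxa1 at a log2 ratio of 1.01 (0.57 to 1.45). In pups the call was 1 of 3 (24.6%), with Elf3 lower at the GE-SCJ, where the log2 ratio was 0.37 with the first squamous label alone (described with Elf3), and in adults 0 of 3 (6.04%). The GE-SCJ squamous cells of E19 also held more Gata4 and Gata6 UMIs for their depth than esophageal ones, 20.4 against 5.27 CPM and 24.1 against 7.61 CPM, with too few UMIs to be counted among those tested.

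Elf3 (chr1:135253575-135258568, minus strand), an epithelial ETS factor known from differentiating epithelia of both kinds, ranged more widely among squamous groups than among columnar groups. Stomach columnar cells had 170, 231 and 150 CPM at E15, E19 and pup, and GE-SCJ columnar cells 195, 210, 152 and 157 CPM from E15 to adult. GE-SCJ squamous cells had 92.9, 202, 134 and 38.0 CPM. In esophageal squamous cells the level went from 47.8 through 102 to 589 CPM between E15 and pup, with intervals of 35.1 to 63.6, 87.8 to 119 and 542 to 639, and was 38.3 CPM (31.9 to 45.7) in adults. The pup esophagus was thus the highest of the 15 epithelial groups of at least 20 cells, and its interval did not overlap the next, E19 stomach columnar cells. At the GE-SCJ the classes differed at E15 with a log2 ratio of 1.07 (0.71 to 1.44), and at E19 and pup the ratios were 0.06 (-0.22 to 0.35) and 0.18 (-0.13 to 0.50). With the first of the squamous labels alone, the E19 ratio was 0.50. In adults Elf3 was called higher in columnar cells, at 157 against 38.0 CPM. Gm26642, an antisense gene, overlaps Elf3.

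The Elf3 level of pup esophagus rested on 1 label. Squamous cells carried 2 labels in the deposited annotation, and 29 of the 85 pup esophageal squamous cells had the second. These 29 cells held 521 of the 573 Elf3 UMIs, at 1297 CPM (1188 to 1413), and all of them were positive. The other 56 cells had 91.1 CPM (68.0 to 119), with 48.2% positive at full depth. Foxq1 went the other way, with 32.4 CPM (17.2 to 55.3) in the second label and 275 CPM (234 to 322) in the first, and Foxa1 had 62.2 and 92.8 CPM with overlapping intervals. With the first label alone, the log2 ratio of Elf3 in stomach columnar over esophageal squamous pup cells was 0.72 in place of -1.98.

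Pdx1 (chr5:147269959-147275848, plus strand) was the factor that separated the 2 columnar regions. Stomach columnar cells had 16.1, 11.5 and 5.43 CPM from E15 to pup, with intervals of 12.3 to 20.6, 9.47 to 13.9 and 4.16 to 6.96. GE-SCJ columnar cells had 1.51, 2.23 and 1.95 CPM, from 2, 16 and 16 UMIs, and the 4 UMIs of adult GE-SCJ columnar cells, at 8.07 CPM (2.20 to 20.7), came from 1 cell. The stomach level exceeded the GE-SCJ level 10.6-fold at E15, 5.16-fold at E19 and 2.78-fold in pups, and all 3 ratios were called. No other factor was called between the regions (1 of 9 at each stage, against 2.78%, 2.34% and 2.40% of all genes), and the largest ratio of the others in either direction was that of Foxq1 at E15 and E19, 1.47-fold higher at the GE-SCJ. The 20 columnar cells of E19 esophagus had 10 UMIs of Pdx1, or 16.5 CPM (7.92 to 30.4), which overlaps the stomach and not the GE-SCJ of that stage.

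No Pdx1 UMI was found in esophageal squamous cells at any stage. A count of 0 allows levels of up to 3.05 CPM at E15, 1.76 CPM at E19, 3.08 CPM in pups and 0.935 CPM in adults, taking 3 counts as the limit. Against that limit, the stomach columnar level was 5.26-fold higher at E15, 6.56-fold at E19 and 1.76-fold in pups. These ratios leave out the counting error of the columnar cells. GE-SCJ squamous cells had 1 UMI in pups and 1 in adults. At equal depth 6.47%, 4.64% and 3.81% of stomach columnar cells were positive from E15 to pup. The 354 immune cells held 1 UMI of Pdx1 in all, in E19 stomach. There 1 of 61 immune cells was positive at equal depth (1.64%), and its interval of 0.0415 to 8.80 includes the stomach columnar shares. Over all immune cells, thinned in a separate draw, 0 of 253 were positive (0 to 1.45). That interval lies below those of stomach columnar cells, the lowest of which began at 2.05% in pups. Plut, an antisense gene, overlaps Pdx1.

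Between stages, columnar cells were compared within each region. In the stomach, 0 of 9 factors were called between E15 and E19 (7.56% of all genes tested) and 1 of 9 between E19 and pup (17.5%), Pdx1, which fell by 1.09 on the log2 scale (interval of the ratio -1.56 to -0.62). In GE-SCJ columnar cells 0 of 8 were called at either step (7.38% and 17.5%). The factors nearest to a call were Foxq1 from E15 to E19, at 0.73 (0.64 to 0.82) in the stomach and 0.73 (0.61 to 0.84) at the GE-SCJ, and Foxa3 from E19 to pup in the stomach, at -0.66 (-0.86 to -0.47). Gata6 had a log2 ratio of 0.01 (-0.09 to 0.10) between E19 and pup in the stomach.

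Squamous cells were compared over the same steps and into adults. In the esophagus, 2 of 4 factors tested were called between E15 and E19 (9.73%), with Elf3 higher at 1.10 (0.63 to 1.59) and Foxa2 lower. Between E19 and pup it was 1 of 3 (29.3%), Elf3 at 2.52 (2.28 to 2.78), and between pup and adult 1 of 3 (33.8%), Elf3 at -3.94 (-4.24 to -3.66), both near the share of all genes. The second squamous label held 3 of the 123 cells at E19 and 29 of the 85 in pups. With the first label alone the counts were 1, 0 and 3 over the 3 steps, with Elf3 at 0.90, 0.03 and -1.25 and Foxq1 at -1.65 in the last. With both labels, Foxa1 and Foxq1 both had a ratio of 0.501 between pup and adult, just short of the 2-fold limit. At the GE-SCJ, 2 of 4 were called between E15 and E19 (14.8%), Elf3 at 1.12 (0.70 to 1.55, and 0.68 with the first label alone) and Foxa2 lower, then 0 of 3 between E19 and pup (14.0%), where Foxq1 was at -1.05 with the first label alone. Between pup and adult 3 of 3 fell (20.1%), Foxa1 by 1.27, Foxq1 by 1.18 and Elf3 by 1.82 on the log2 scale.

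**Figure D3:**
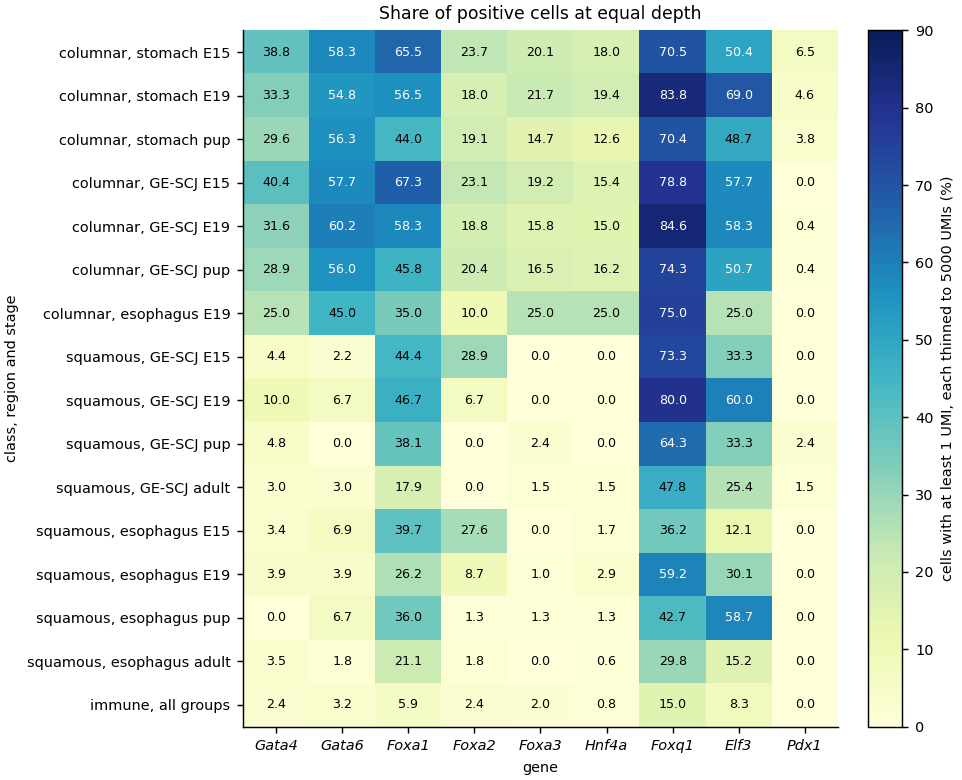
Percent of cells with at least 1 UMI of each factor after thinning each cell to 5000 UMIs, by class, region and stage for groups of at least 20 cells, with immune cells in the last row. Gata4, Gata6, Foxa3 and Hnf4a are sparse in squamous rows at all stages, Foxa2 is found in 27.6% and 28.9% of E15 squamous cells, and Foxa1, Foxq1 and Elf3 are found in both classes.

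The factors were counted together in single cells at equal depth. Columnar groups of at least 20 cells had a median of 3 or 4 of the 9 factors per cell, squamous groups 1 or 2, and immune cells 0. At least 1 of Gata4, Gata6, Foxa3 and Hnf4a was found in 75.0% to 82.7% of columnar cells and in 5.26% (adult esophagus) to 16.7% (E19 GE-SCJ, 5 of 30 cells) of squamous cells. Immune cells had 7.11% (4.27 to 11.0), so the squamous shares overlapped background. These 4 factors had already separated the classes in the same cells, so their joint share is not a separate result. Among stomach columnar cells of E19 with a Gata4 UMI, 51.3% also had one of Gata6, against 54.8% of all those cells. For Foxq1 and Elf3 in the same group, 87.0% of Elf3-positive cells had Foxq1, against 83.8% of all.

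Factors were also compared along states within columnar cells. Cells of a group were ordered by the share of their UMIs from fixed genes, and the 25% of cells with the largest share were set against the 25% with the smallest. These are ranges along a score, not cell types. Genes of pit cells (Muc5ac, Gkn1, Gkn2 and Tff1), the mucous cells of the stomach surface, were used first. In the stomach 0 of 8 factors were called at E15 (4.70%), 2 of 9 at E19 (17.3%) and 4 of 9 in pups (20%). All calls were higher in the pit-rich cells, whereas the shares of all genes count both directions. The E19 count was near its share.

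At E19 the 91 pit-rich cells had Foxa3 at 89.6 CPM against 29.9 CPM, and Pdx1 at 25.5 CPM against 3.88 CPM. In pups, with 87 cells at each end, Foxq1 was at 1414 CPM against 274 CPM, with a log2 ratio of 2.37 (2.26 to 2.47). Elf3 was at 267 against 94.9 CPM, Hnf4a at 46.1 against 17.8 CPM, and Pdx1 at 16.7 against 2.30 CPM. Gata4, Gata6, Foxa1 and Foxa2 had ratios between -0.01 and 0.05 on the log2 scale in the same cells. The pup cells differed in depth, with medians of 25130 UMIs in the pit-rich cells and 41075 UMIs in the others. In GE-SCJ pups 2 of 8 were called (16.8%), Foxq1 at 1240 against 363 CPM and Elf3 at 236 against 97.7 CPM. That count was not far from the share of all genes.

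Genes of parietal cells (Atp4a, Atp4b and Slc26a7), the acid-secreting cells, were used in the same way. In pup stomach 4 of 8 factors were lower in the parietal-rich cells, where 33.6% of all genes were called in either direction and 19% were called lower. Foxq1, Elf3 and Hnf4a were called along both orders of pup stomach, in opposite directions, while Pdx1 had too few UMIs along the parietal order and Foxa3 was short of a call along the pit order, at 0.97. Both orders rank the same cells and the overlap of their ends is not given, so they are not separate results. Hnf4a was at 2.07 CPM against 39.6 CPM, from 6 and 118 UMIs, and Foxq1 at 43.9 against 923 CPM. Elf3 was at 71.5 against 182 CPM and Foxa3 at 16.2 against 40.6 CPM. The other four tested were not called, with Gata4 at 82.5 against 72.1 CPM, Gata6 at 204 against 154 CPM, Foxa1 at 101 against 115 CPM and Foxa2 at 62.2 against 40.2 CPM. In GE-SCJ pups 1 of 8 was called (13.9%), near the share of all genes. It was Foxq1, at 334 against 691 CPM, and Hnf4a was at 28.0 against 39.5 CPM.

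Cycling genes (6 genes, among them Mki67 and Top2a) gave counts near the share of all genes at E15 and E19. There was 1 call of 8 in E15 stomach (9.71%), Foxa3 at 29.1 CPM in the cycling cells against 65.1 CPM. At E19 there was 1 of 9 (13.7%), Pdx1 at 6.55 against 22.4 CPM. Both counts were 0 when 50% of cells were taken at each end, and at E19 124 cells had a score of 0 for a low end of 91 cells, which was thus taken among ties. In pups 0 of 8 were called, with 156 cells at a score of 0 for a low end of 87 cells. Genes of the gland base and endocrine genes gave 0 calls of 8 or 9 at each of the 3 stages, and parietal genes 0 of 8 at E15 and at E19.

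In esophageal squamous cells the order was by suprabasal genes (Krt4, Krt13, Sprr3 and Sbsn), which mark cells that have left the basal layer. At E15, with 16 cells at each end, Foxq1 was at 361 CPM in the suprabasal cells against 90.2 CPM (1 of 2 called, 14.3%). Elf3 had 33 UMIs there against 1, and Foxa2 had 3 UMIs against 40 at the other end, both too few to be counted among those tested. At E19 Elf3 was at 161 against 15.7 CPM and Foxa1 at 41.8 against 91.8 CPM (2 of 3 called, 33.4%). In pups Elf3 was at 1141 against 41.1 CPM and Foxq1 at 73.1 against 276 CPM (2 of 2 called, 62.3%). In adults Foxa1 was at 8.56 CPM in the suprabasal cells against 94.3 CPM (1 of 3 called, 45.0%), with Elf3 at 28.3 against 40.1 CPM. The second squamous label made up 19 of the 21 suprabasal-rich cells in pups and 0 of the 21 at the other end, against 1 of 30 and 0 of 30 at E19. Ordered within the first label, pup cells gave 0 calls, with Foxq1 at 308 against 243 CPM and Elf3 at 20 against 2 UMIs, too few to be counted. At E19 they gave 1 call, Elf3 at 164 against 15.7 CPM, with Foxa1 just short of 2-fold. The adult ends had median depths of 26976.5 and 6657.5 UMIs.

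**Figure D4:**
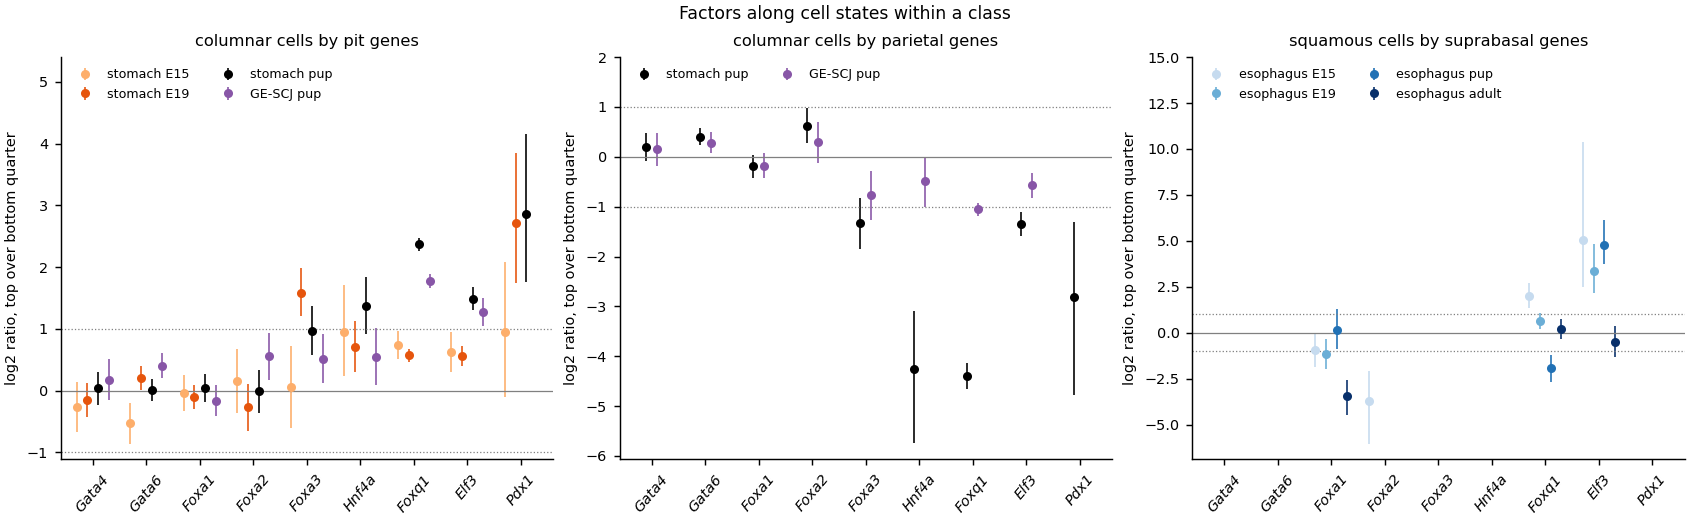
Log2 ratio of CPM between the top and the bottom 25% of cells ordered by pit genes, parietal genes or suprabasal genes, with exact 95% intervals and dotted lines at 2-fold. Factors with at least 20 UMIs over both ends are drawn. Foxq1, Elf3 and Hnf4a lie above 2-fold along the pit order of pup stomach and below it along the parietal order, while Gata4, Gata6, Foxa1 and Foxa2 stay within 2-fold in both. Both orders rank the same pup stomach cells and are not separate results.

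Related genes were counted from lists of other endoderm and epithelial factors (25 genes measured), cofactors (6) and known targets (15). These lists too were chosen with earlier results of these data known. At the pup GE-SCJ, 9 of 20 other factors tested were higher in columnar cells and 5 lower, against 14.6% and 9.04% of all genes. The largest ratio was that of the nuclear receptor gene Esrrg, at 71.5 CPM against 1.49 CPM, followed by Creb3l4 at 79.1 against 5.97 CPM and Creb3l1 at 185 against 17.9 CPM. The 5 lower were Sox2, at 22.8 against 152 CPM, Ehf, Grhl1, Grhl2 and Klf5. Gata5, the third endodermal GATA gene, had 206 UMIs and 25.1 CPM in columnar cells and none in squamous cells, at least 5.61-fold higher.

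Among cofactors, 4 of 5 tested were higher in columnar cells of the pup GE-SCJ, where 14.6% of all genes were called higher. At the other stages of the GE-SCJ the counts were 1 of 3 at E15, 1 of 4 at E19 and 0 of 1 in adults. The values that follow are those of pups. Ppargc1a, a coactivator of nuclear receptors, was at 76.3 against 4.48 CPM, Tle1 at 24.4 against 2.99 CPM and Zfpm1, which encodes a partner of GATA proteins, at 49.6 against 13.4 CPM. Of the known targets 12 of 14 tested were higher, with Gast, which encodes gastrin, at 758 against 1.49 CPM, Apoa1 at 678 against 14.9 CPM and Agr2 at 3162 against 83.6 CPM. Agr2 is also among the columnar markers used above to check the labels, so its difference is not separate from the classes. The median log2 ratio was 3.78 over the 8 members tested, 1.79 over the other factors, 1.88 over the cofactors and 3.98 over the targets, beside 0.12 over all genes tested.

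Between E19 and pup in stomach columnar cells, 6 of 14 targets tested were higher and 3 lower, where 17.5% of all genes were called in either direction. The proton pump genes Atp4a and Atp4b went from 232 to 3340 CPM and from 191 to 3034 CPM, Apoa4 from 4.08 to 41.6 CPM, and Gast from 116 to 2.28 CPM. The high level of Gast in GE-SCJ columnar cells of pups was thus not shared by stomach columnar cells of that stage. The number of cells that held Gast UMIs is not given here. The parietal score above which the top 25% of these cells lay went from 188 to 12385 per 1000000 UMIs over this step. Atp4a and Atp4b are themselves genes of that score, so it is not a measure apart from their values. Its part in the values of the other targets was not tested. Over the same step Gata4 was at 85.7 and 76.8 CPM and Gata6 at 174 and 175 CPM.

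**Figure D5:**
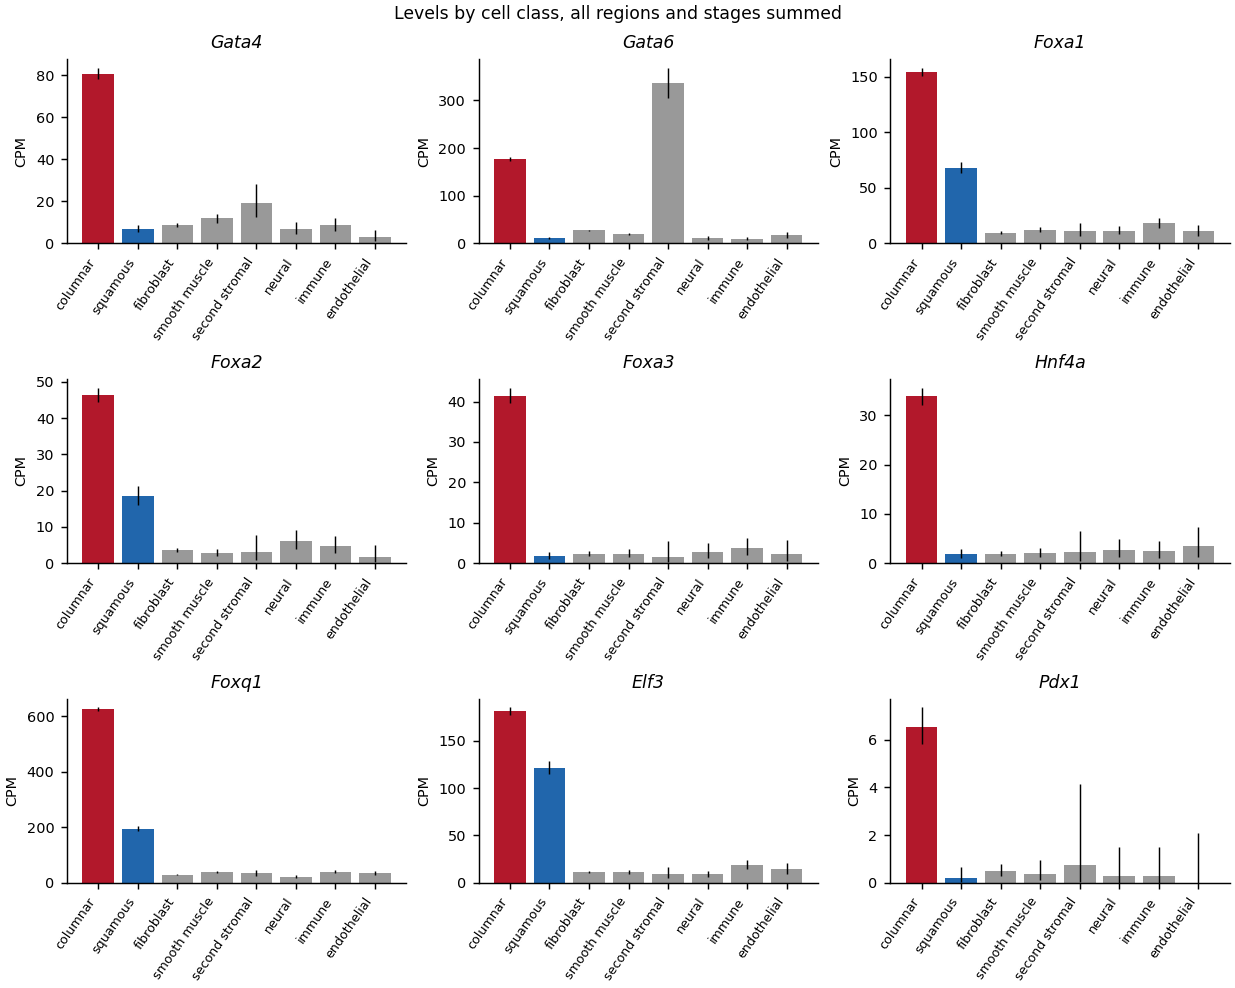
CPM of each factor in 8 cell classes, summed over all regions and stages, with exact 95% intervals (linear axes from 0). Columnar cells are highest for 8 of 9 factors, Gata6 is highest in the second stromal label at 336 CPM, and squamous cells lie above the other non-columnar classes for Foxa1, Foxa2, Foxq1 and Elf3.

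For each factor the genes with the most similar levels were found over 54 groups of a class, region and stage, ranking 11672 genes by the Pearson correlation (r) of their log2(CPM + 10) with that of the factor. The groups share 1 library and free RNA, and r is a description. Gata4 was most like Igsf5 (r of 0.87), Akr1c19 and Hnf4g, and Hnf4a most like Sult1d1 (0.92), Gipc2 and Tspan8. Foxa3 was most like D630039A03Rik (0.92), Pla2g10 and Akr1c13, and Pdx1 most like Gstm3 (0.87), Nkx6-2 and Vil1. Foxa1 was most like Itgb6 (0.94), Fermt1 and Epcam, Elf3 most like Itgb6 (0.93), Prss8 and 2200002D01Rik, and Foxa2 most like Sfta2 (0.84), Fermt1 and Dsg2. Foxq1 had Foxa1 among its 3 most similar genes (0.94), beside Smim22 and Fxyd3, and Gata6 was most like Myrf (0.87), Tm4sf5 and the overlapping 1010001N08Rik. Among members, Foxa3 and Hnf4a had an r of 0.86, Elf3 and Foxa1 0.90, and Elf3 and Gata6 0.40.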

How the data were processed

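The labels state that cells were tagged by region and stage, pooled and sequenced as 10x Genomics 3′ libraries. The deposited counts are whole UMIs per gene and cell, made by the authors with Cell Ranger 6.1.1 and its mm10 reference (GRCm38). The authors kept cells by limits on genes, UMIs and mitochondrial percent, which were also their screen for doublets. No further doublet caller was run here, and the highest mitochondrial share left was 19.7%. Cell class, region and stage came from the deposited annotation.

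UMIs were summed per class, region and stage. Each is 1 pooled sample, so no test across samples could be made. Intervals of CPM, shares and ratios were exact (Poisson, Clopper-Pearson and conditional binomial). A ratio with no UMI on one side was taken against 3 counts in that group. Cells were thinned to 5000 UMIs with seed 1, leaving out shallower cells (101 of 354 immune cells). All 9 factors and the 3 genes most like each are named, and of the lists the 3 genes with the largest ratios and those lower in columnar cells. Gata5, Apoa4 and the genes that overlap a factor were chosen after their values were seen. The members and lists were chosen with earlier results of these data known. Alternatives changed the fold, the UMI minimum, the cell filters, the classes, the squamous labels, the share of cells taken at each end of an order and the scaling. Scripts ran in Python 3.11.15 with pandas 2.3.3, scipy 1.17.1, numpy 2.4.6 and matplotlib 3.10.9.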

Additional observations from a re-analysis of the deposited data

Results flagged for a closer look

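Foxq1 and Elf3 had log2 ratios of opposite sign in the 2 epithelia between E19 and pup when both squamous labels were used. Foxq1 had a log2 ratio of 0.19 in stomach columnar cells and -0.36 in esophageal squamous cells. Elf3 had a log2 ratio of -0.62 in stomach columnar cells and 2.52 in esophageal squamous cells. The stomach ratios of both genes, and the squamous ratio of Foxq1, were within 2-fold. The second squamous label held 3 of 123 esophageal squamous cells at E19 and 29 of 85 in pups. With the first label alone the squamous ratios were 0.25 for Foxq1, which is the direction of the stomach, and 0.03 for Elf3. With 1 pooled sample a group, the difference was not tested.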

How the results depend on the processing

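Of the counts of factors called, 157 stayed within 1.5 times the reported count across the alternatives and 29 moved. Of the values of single factors 1389 kept their place, 89 moved and 2 reversed. The reversed ratios were those of Elf3 in pups when the first squamous label was used alone, 0.72 for stomach columnar over esophageal squamous cells and 0.37 for GE-SCJ over esophageal squamous cells.

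With a 4-fold limit, 3 factors were called at the E19 GE-SCJ, 5 between stomach and esophagus at E19, 0 between pup and E19 in stomach columnar cells, 1 between E19 and E15 in esophageal squamous cells and 0 between stomach and GE-SCJ in pups. With at least 200 UMIs, 2 were called at the E15 GE-SCJ, 4 between stomach and esophagus at E15, 0 between pup and E19 in stomach columnar cells, 1 between E19 and E15 in esophageal squamous cells, and 0 between stomach and GE-SCJ at each of the 3 stages, since fewer genes were then counted. The call of Pdx1 between pup and E19 gave 0 with the mean of the CPM of each cell, and 0 with cells of at least 1000 UMIs and at most 10% mitochondrial. With the first squamous label alone, esophageal squamous cells gave 1 call between E19 and E15, 0 between pup and E19, and 3 between adult and pup, and the order by suprabasal genes gave 1 at E19 and 0 in pups. The count between adult and pup was also 3 with the cell filter, 3 when the 1% of cells richest in a gene were left out, 3 without adult cells of the 4 embryonic genes, and 2 with classes from marker genes, since Foxa1 and Foxq1 lay just short of 2-fold. Taking 50% in place of 25% of cells at each end gave 0 for cycling genes at E15 and at E19, 2 for suprabasal genes at E15 and 1 at E19. GE-SCJ in place of stomach pups gave 2 for pit and 1 for parietal genes. That choice, the embryonic genes and the suprabasal order within the first label were chosen after seeing the data.

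No paired analysis was possible because each group is 1 pooled sample. The number of mice behind a value cannot be weighed, and squamous groups of 34 to 232 cells leave wide intervals for factors with few UMIs.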
